A study of Mus musculus with 9 samples.

Results

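The nuclear genes for the subunits of the 5 oxidative phosphorylation complexes were examined in primary mouse embryonic fibroblasts (MEFs), cultured cells of the connective tissue of embryos, which were given a CRX gene of 1 of 2 mammalian lineages. Genes were taken by symbol from the deposited count table: those starting with *Ndufa*, *Ndufb*, *Ndufc*, *Ndufs* or *Ndufv* (complex I, without the *Ndufaf* assembly factors), *Sdha* to *Sdhd* (complex II), those starting with *Uqcr* (complex III), the *Cox4* to *Cox8* families (complex IV) and those starting with *Atp5* (complex V). The rule found 85 of the 22068 listed genes, and 78 of them passed the filter on low values, which left 10100 genes for testing. By complex, 38 of 38 genes of complex I, 4 of 4 of complex II, 8 of 8 of complex III, 12 of 18 of complex IV and 16 of 17 of complex V were tested. *Ndufa4* and its relative *Ndufa4l2* were counted with complex I by symbol, although the protein of *Ndufa4* is also described in complex IV. *Atp5s* and *Atp5sl* match the rule without being subunits of a mature complex.

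All 9 samples were primary MEFs of C57Bl/6 mice at passage 2, grown in serum on coated plastic, electroporated with a plasmid carrying a puromycin-resistance gene and kept in puromycin for 5 days. In the control condition the plasmid held no homeobox gene. In the eutherian CRX condition it also held V5-tagged human CRX, and in the metatherian CRX condition V5-tagged opossum CRX, with 3 libraries in each condition. CRX is a homeobox transcription factor known for its role in photoreceptors, so MEFs were a host in which the gene was foreign and its level was set by a plasmid. Nothing in the sources states that the 3 libraries of a condition came from separate cultures, so p-values measure the spread between these libraries, which may be technical.

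Oxidative phosphorylation is the process by which mitochondria turn the energy of NADH and succinate into ATP. Complexes I and II pass electrons to ubiquinone, complex III passes them on to cytochrome c and complex IV to oxygen. Complexes I, III and IV pump protons across the inner membrane, and complex V, the ATP synthase, lets them flow back to drive ATP synthesis. Apart from complex II, each complex joins subunits from nuclear genes with a few made inside the mitochondrion from its own DNA. The mitochondrially encoded subunits were not analysed here.

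Total counts ranged from 54145701 to 94699657 per library. Reads on the mouse *Crx* row, which human CRX can reach through shared sequence, numbered 627, 995 and 313 in the eutherian CRX libraries, 0 in the control libraries, and 4, 0 and 0 in the metatherian CRX libraries, so the row does not check the opossum gene. Libraries numbered 3 stood apart: on the main principal component eutherian CRX replicate 3 lay at 55 while the other 2 eutherian CRX libraries lay at -27.4 and -30.9. All 10 fibroblast markers used for the check were listed, with a summed level of 9140 to 10500 FPKM in control, 4450 to 8650 in eutherian CRX and 4880 to 8760 in metatherian CRX libraries, so that control lay above all CRX libraries. The 7 macrophage and leukocyte markers summed to 9.76 to 31.2 FPKM in control, 5.77 to 17.9 in eutherian CRX and 3.65 to 9.52 in metatherian CRX libraries. The summed striated muscle markers lay at 17.5 to 70.4, 9.23 to 16.9 and 8.82 to 17.1 FPKM in the same order, with *Myf5* at 0 counts in every library. Single genes weighed heavily in both sums: *Acta1* had a mean of 15.7 FPKM among the muscle markers and *Lyz2* 7.17 among the leukocyte markers. In every library 5 of the 9 muscle markers and 3 of the 7 leukocyte markers stayed under 1 FPKM. Epithelial markers summed to 5.46 to 11.7, 6.06 to 22.4 and 13.3 to 18.8 FPKM, and endothelial, neural and adipocyte markers overlapped among all conditions. The part of these marker levels in the results on subunit genes was not tested, and in bulk RNA fewer cells of a type and less RNA per cell cannot be told apart.

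Levels are given as FPKM (fragments scaled by exon length and by the depth of the library), computed from the deposited counts and exon lengths with library sizes scaled by TMM factors. The subunit genes had a median of 75.4 FPKM over the 9 libraries, against 11.4 for all tested genes. 22 of the 78 lay over 100 FPKM and 14 under 20. Their counts made up 0.632, 0.651 and 0.646% of all counts in the control libraries, 0.713, 0.742 and 0.789% in the eutherian CRX libraries and 0.675, 0.680 and 0.688% in the metatherian CRX libraries. The 3 conditions did not overlap in this share, with eutherian CRX highest. The share is taken of unscaled totals.

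The complexes differed in how even their subunit levels were. Complex II was nearly level: *Sdhd*, a membrane anchor subunit, had a mean of 91.4 FPKM, *Sdha*, the flavoprotein that oxidises succinate, 91.8, *Sdhb*, the iron-sulfur subunit, 98.8 and *Sdhc*, the other anchor, 98.8, a span of 1.08-fold. Complex I had a lower median of 43.4 FPKM and ran from *Ndufa4l2* at 2.23 to *Ndufa4* at 225, both placed there by symbol. Apart from these 2 genes it ran from *Ndufab1* at 3.93 to *Ndufb9* at 164. Complex III had a median of 87.8 FPKM and ran from *Uqcrb* at 29.0 to *Uqcrh*, the hinge protein near cytochrome c1, at 203. In complex IV the median was 105 FPKM and the span ran from *Cox7c* at 8.33 to *Cox4i1*, the ubiquitous form of subunit IV, at 398. Complex V had a median of 101 FPKM, from *Atp5s* at 3.84 to *Atp5b*, the catalytic beta subunit, at 568. Its lowest tested gene of a true subunit was *Atp5g1* at 6.42. *Atp5b* was the highest of all 78 genes.

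**Figure D1:**
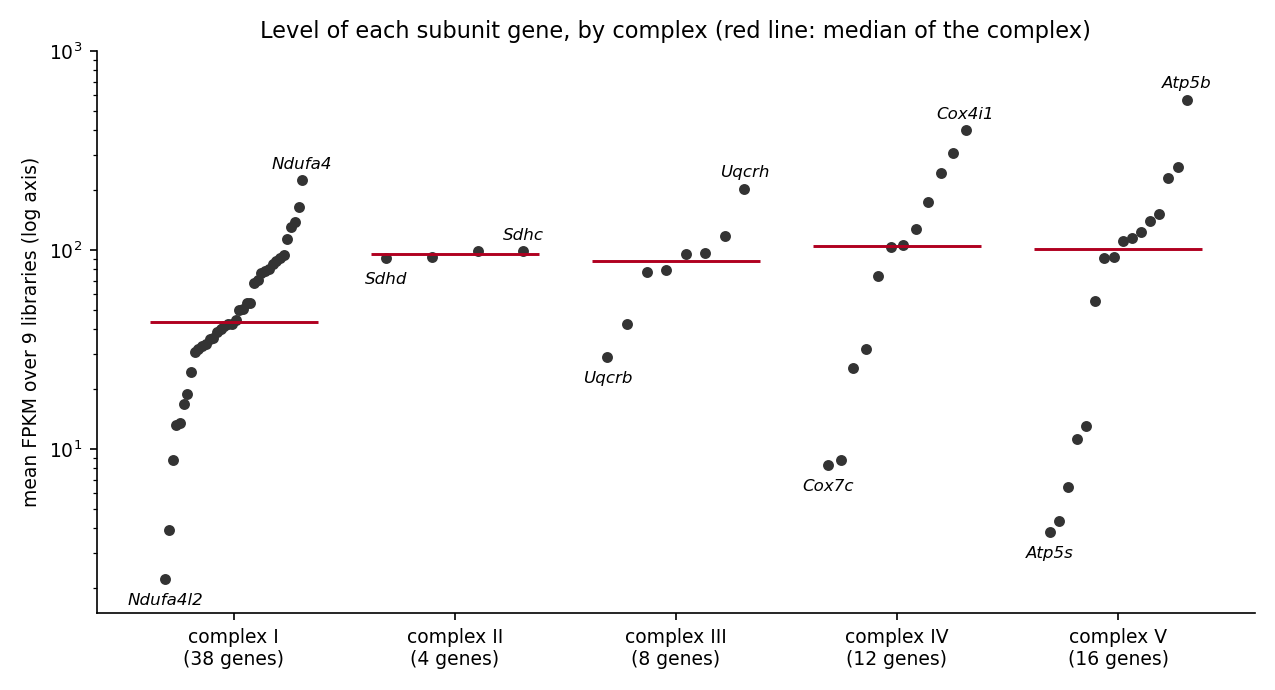
Mean FPKM over the 9 libraries on a log axis for each of the 78 tested subunit genes, grouped by complex, with the median of each complex as a red line. The 4 genes of complex II lie within 1.08-fold of each other, while complexes I, IV and V hold genes from under 10 to over 200 FPKM. In complex I only Ndufa4, placed there by symbol, lies over 200 FPKM.

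Among the core subunits of complex I, those shared with the bacterial enzyme, *Ndufv2* had a mean of 50.5 FPKM, followed by *Ndufv1*, which binds NADH, at 44.3, *Ndufs1* at 40.3, *Ndufs8* at 35.5, *Ndufs7* at 24.5 and *Ndufs3* at 13.2. In complex III the Rieske protein gene *Uqcrfs1* had 42.5 FPKM, under both core protein genes *Uqcrc1* at 96.5 and *Uqcrc2* at 77.4. In complex V, *Atp5a1* for the catalytic partner alpha had 261 FPKM, *Atp5c1* for the gamma subunit 90.7, *Atp5o* for the oligomycin-sensitivity protein of the stalk 111, *Atp5d* for delta 151 and *Atp5e* for epsilon 123. Both genes for the catalytic head of complex V thus lay above these genes of complexes I and III.

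Some low levels belonged to genes whose transcripts resemble other loci, and reads shared with a near-identical copy may be lost or split, depending on a counting setting that is not given in the sources used here. Of the 78 genes, 24 shared at least 1 stretch of 75 bases with transcripts of another locus in the GENCODE mouse set, and their median was 31.3 FPKM, against 86.3 for the other 54. The rank correlation between the shared percent and the level was -0.372 across these 78 genes, which share libraries and are not independent replicates. *Atp5l* shared 63.4% of its stretches, *Atp5h* 36.5%, *Ndufb4* 35.2%, *Uqcrb* 29.1%, *Ndufs3* 27.1% and *Cox7c* 25%, so the levels of these genes are uncertain. Exons of several subunit genes also overlap a neighbour: 7.27% of the exon length of *Ndufb11* lies in *Rbm10*, 2.86% of *Ndufa4l2* in *Shmt2*, 11.5% of *Ndufa2* in *Tmco6* and 22.3% of *Uqcrc2* in *Pdzd9*. The strand setting of the counting was not stated, so reads there cannot be assigned with certainty. The row of *Ndufa7* lists exons at 2 distant places on chromosome 17.

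Where a subunit has a tissue-specific form, the ubiquitous form made up nearly all of the level in every library. *Cox4i2*, the lung and hypoxia-linked form of subunit IV, had 0.156 to 0.413% of the summed *Cox4i* FPKM. *Cox6a2*, the heart and skeletal muscle form, had 0 to 0.213% of *Cox6a*, and *Cox7a1*, also a muscle form, 0.659 to 1.18% of *Cox7a1* plus *Cox7a2*. *Cox6b2*, known from testis, had 2.17 to 5.32% of *Cox6b*. *Cox7b2*, *Cox8b* and *Cox8c* had 0 counts in all 9 libraries. Of the 3 genes for the c subunit, which forms the rotor ring of the ATP synthase, *Atp5g3* gave 95.9 to 98.0% of the level. No share except that of *Ndufa4l2* and that of *Cox6a2* kept the control libraries apart from both CRX conditions, and *Cox6a2* lay at or under 0.50 FPKM throughout.

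Promoter sequences are shown for 6 subunit genes, some with values described below and some as examples of a motif. Each line holds the 250 bases before the annotated start of the gene from RefSeq on GRCm38.p6, written 5′ to 3′ in the direction of the gene, and capitals mark a motif match. *Ndufs6* (chr13:73328483-73328732, minus strand) and *Ndufb11* (chrX:20617620-20617869, minus strand) had the smallest p-values when the CRX conditions were compared directly, and hold no match in these bases. *Sdhb* (chr4:140961021-140961270, plus strand) holds the core of an NRF1 site, the factor best known for respiratory chain promoters. *Atp5e* (chr2:174464102-174464351, minus strand) holds the core of an ETS site, *Ndufa12* (chr10:94198785-94199034, plus strand) the CRX core, and *Ndufb7* (chr8:83566508-83566757, plus strand) both an ETS and a CRX core.
Ndufs6: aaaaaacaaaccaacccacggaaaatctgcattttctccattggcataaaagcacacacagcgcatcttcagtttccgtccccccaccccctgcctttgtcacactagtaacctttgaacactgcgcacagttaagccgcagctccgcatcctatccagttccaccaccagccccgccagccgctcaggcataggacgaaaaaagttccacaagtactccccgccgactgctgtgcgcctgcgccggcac
Ndufb11: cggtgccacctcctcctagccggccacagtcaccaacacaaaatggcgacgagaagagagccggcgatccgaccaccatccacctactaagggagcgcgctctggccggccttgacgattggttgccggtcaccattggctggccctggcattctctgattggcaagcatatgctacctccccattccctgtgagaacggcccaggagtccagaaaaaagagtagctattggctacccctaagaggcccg
Sdhb: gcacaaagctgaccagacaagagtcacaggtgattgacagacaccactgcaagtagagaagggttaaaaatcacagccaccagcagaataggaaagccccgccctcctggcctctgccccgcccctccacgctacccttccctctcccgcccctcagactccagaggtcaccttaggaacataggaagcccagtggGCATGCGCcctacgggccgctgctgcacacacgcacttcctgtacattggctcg
Atp5e: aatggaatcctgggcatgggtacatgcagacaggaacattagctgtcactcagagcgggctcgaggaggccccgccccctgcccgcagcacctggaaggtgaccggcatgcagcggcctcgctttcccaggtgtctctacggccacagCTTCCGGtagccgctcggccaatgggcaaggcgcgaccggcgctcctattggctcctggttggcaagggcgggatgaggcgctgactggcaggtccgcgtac
Ndufa12: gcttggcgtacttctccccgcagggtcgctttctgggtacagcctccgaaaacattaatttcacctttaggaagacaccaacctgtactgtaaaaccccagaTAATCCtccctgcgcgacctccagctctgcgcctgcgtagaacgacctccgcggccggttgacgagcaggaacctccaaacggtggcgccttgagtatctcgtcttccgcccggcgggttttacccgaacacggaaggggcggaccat
Ndufb7: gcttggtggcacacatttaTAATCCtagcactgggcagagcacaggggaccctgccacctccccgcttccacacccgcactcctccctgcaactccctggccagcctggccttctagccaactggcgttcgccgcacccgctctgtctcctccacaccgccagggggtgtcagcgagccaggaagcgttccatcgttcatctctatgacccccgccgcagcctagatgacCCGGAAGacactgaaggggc

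Motifs were searched on both strands in 300 bases, the 250 above plus the 50 after the start, and 66 of the 78 genes had an entry. The CRX core TAATCC was found in 6 of them (9.09%), against 5.12% of 8137 promoters of tested genes: *Cox6b2*, *Cox7a2l*, *Ndufa11*, *Ndufa12*, *Ndufb7* and *Ndufs4*. The NRF1 core GCATGCGC was in 13.6% of the subunit gene promoters against 6.03% of all, the YY1 core AAGATGG in 16.7% against 7.83% and the ERR motif AAGGTCA in 12.1% against 2.65%. The ETS core CCGGAAG was in 22.7% against 20.1% and the E-box CACGTG in 10.6% against 10.9%. NRF1, ETS factors such as GABPA, YY1 and ERR are textbook regulators of respiratory genes. A match describes these letters only and was not tested for binding or for an effect on the level.

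The subunit genes lay a little higher with eutherian CRX than in control, and no single gene passed the test. Of 78 genes, 67 (85.9%) had a log2 fold change above 0, against 50.3% of all tested genes, with a median of 0.12 (1.09-fold) and an interquartile range of 0.06 to 0.20, against a median of 0.00 over all tested genes. In edgeR's quasi-likelihood test 0 of the 78 reached an adjusted p under 0.05, where 0.604% of all tested genes did, and the smallest adjusted p was 0.317. At an unadjusted p under 0.05, 7 genes (8.97%) were higher, against 2.23% of all tested genes, and 1 (1.28%) was lower, against 6.34%. The DESeq2 Wald test put 1 subunit gene, *Ndufb9*, past the adjusted threshold (log2 fold change 0.29, adjusted p = 0.047), where it called 3.3% of all tested genes. In 18 genes (23.1%) the eutherian CRX libraries all lay above the control libraries, against 6.2% of all tested genes, and in 1 they all lay below, against 7.8%.

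Every complex had a median above 0 in this comparison. Complex II stood at a median log2 fold change of 0.18 with 4 of 4 genes above 0, complex III at 0.15 with 7 of 8, complex IV at 0.12 with 8 of 12, complex I at 0.11 with 32 of 38 and complex V at 0.10 with 16 of 16. Of the core subunits 7 of 7 in complex I and 3 of 3 in complex III were above 0, as were 6 of 6 of the catalytic head and stalks in complex V, but *Ndufs3* stood at 0.00, *Uqcrfs1* at 0.01 and *Atp5d* at 0.02. In at least 1 other fit 6 of these genes lay below 0, *Atp5d* down to -0.26, *Ndufs7* to -0.19, *Uqcrfs1* to -0.08, *Ndufs3* to -0.07, *Uqcrc1* to -0.04 and *Ndufs8* to -0.01. Taking the median over subunit genes within each library, the difference from the control mean was 0.11, 0.17 and 0.09 in the eutherian CRX libraries and -0.02, 0.04 and -0.03 in the control libraries. The 3 eutherian CRX libraries thus lay above the 3 control libraries, whereas the same median over all tested genes stayed between -0.02 and 0.01 in all 9 libraries.

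**Figure D2:**
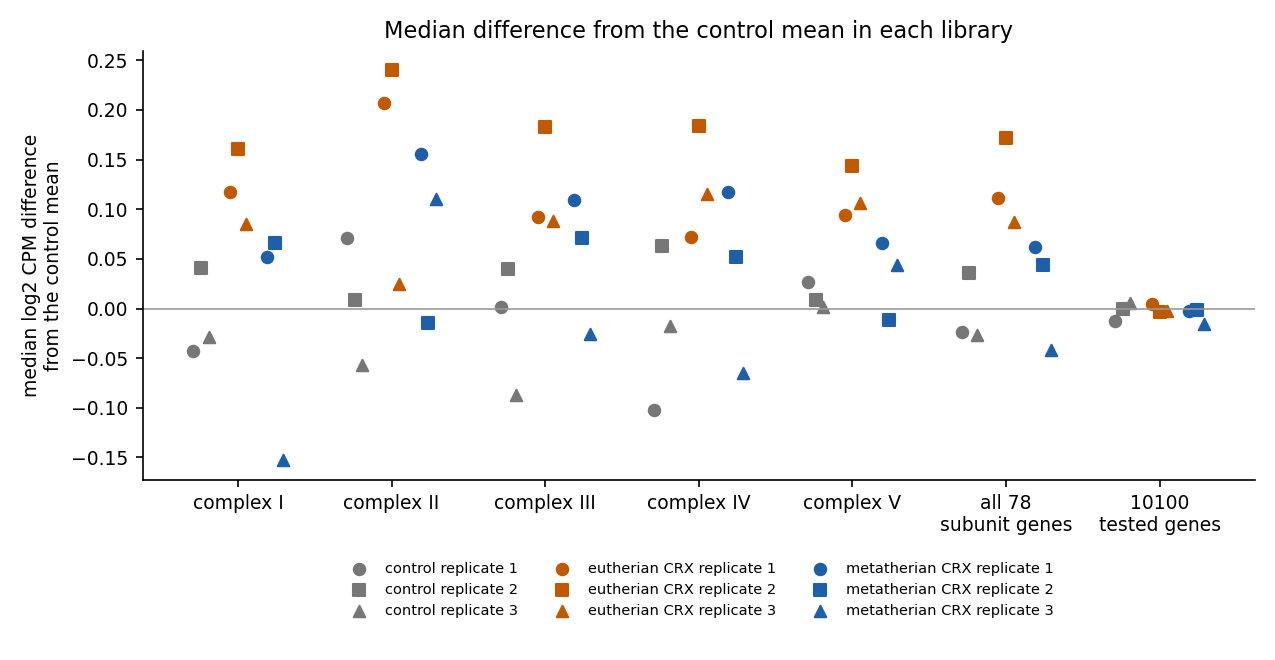
Median over genes of the log2 CPM difference from the control mean, for each of the 9 libraries, by complex, for all 78 subunit genes and for all 10100 tested genes; shapes stand for replicate numbers. Over all 78 genes the eutherian CRX libraries sit at 0.09 to 0.17, above the control libraries at -0.03 to 0.04, and metatherian CRX replicate 3 is lowest at -0.04.

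The scale of this shift depended on the library scaling. With total counts in place of TMM factors the median was 0.22 with 75 of 78 genes above 0, while the median of all tested genes moved by 0.09. Without eutherian CRX replicate 3, the library that stood apart, 57 of 78 genes were above 0 with a median of 0.10, and 2 in place of 7 were higher at an unadjusted p under 0.05. That count was 2 to 4 when any other library except metatherian CRX replicate 3 was left out. Among all tested genes 197 were higher without eutherian CRX replicate 3, and 86 to 303 in those other fits. Without metatherian CRX replicate 3 the count was 15, while the genes higher among all those tested went from 225 to 488. Leaving out all libraries numbered 3, a choice made after seeing the data, gave 66 of 78 and a median of 0.12, with 16 higher, against 594 of all 10025 genes tested in that fit.

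*Ndufb9*, an accessory subunit of the membrane arm of complex I (chromosome 15, 58933810 to 58939489 in mm10), had 151, 160.4 and 133 FPKM in control, 179, 194 and 169 in eutherian CRX and 167, 179 and 145 in metatherian CRX libraries. The eutherian CRX libraries all lay above the control libraries and the metatherian CRX libraries overlapped both. Its log2 fold change with eutherian CRX was 0.29 (SE 0.08, 95% interval 1.07- to 1.39-fold, adjusted p = 0.317, edgeR). *Ndufb8*, also of the membrane arm, had 40.0, 42.9 and 32.9 FPKM in control and 44.9, 50.2 and 46.6 with eutherian CRX, without overlap, and a log2 fold change of 0.30 (adjusted p = 0.445, edgeR). *Ndufb10*, another membrane arm subunit, had 128, 139.8 and 126 FPKM in control, 147, 154.5 and 152.5 with eutherian CRX and 129, 142 and 120.3 with metatherian CRX. In *Ndufb10* the eutherian CRX libraries lay above all 6 others.

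*Sdhb* (chromosome 4, 140961271 to 140979197), whose promoter is shown above, had 92.3, 96.1 and 92.1 FPKM in control, 106, 107 and 112 with eutherian CRX and 94.7, 99.5 and 89.6 with metatherian CRX. Here too the eutherian CRX libraries lay above the other 6, with a log2 fold change of 0.21 against control (adjusted p = 0.555, edgeR). *Atp5o* had 96.3, 103 and 106.5 FPKM in control, 111, 128 and 122.5 with eutherian CRX and 109, 111 and 109 with metatherian CRX. In *Atp5o* both CRX conditions lay above control without overlap. *Cox5a*, a matrix-side subunit of complex IV, had 99.1, 94.0 and 85.1 FPKM in control, 111, 103 and 125 with eutherian CRX and 107, 95.1 and 112 with metatherian CRX, so that only the eutherian CRX libraries were clear of control. *Ndufa10*, a further accessory subunit of complex I, had a log2 fold change of 0.22 (adjusted p = 0.547, edgeR), with 56.1, 65.2 and 72.3 FPKM in control and 71.2, 71.0 and 82.7 with eutherian CRX, which overlap.

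The highest log2 fold changes with eutherian CRX were 0.35 for *Ndufb4*, 0.30 for *Ndufb8*, 0.29 for *Ndufb9*, 0.28 for *Cox5a* and 0.25 for *Cox7a2*. The lowest after *Ndufa4l2* were -0.25 for *Cox6b2*, -0.17 for *Cox7a2l*, a factor that joins complexes III and IV, -0.05 for *Cox6a1* and -0.04 for *Ndufv3*. *Cox6b2* and *Cox7a2l* rest on control replicate 3, at 16.2 and 34.7 FPKM against 7.40 to 7.48 and 21.6 to 23.4 in the other control libraries. Without it their values were 0.05 and 0.05, and those of *Cox6a1* and *Ndufv3* were 0.12 and 0.26. For 77 of the 78 genes the 95% interval lay inside a 2-fold change in either direction, and for 60 inside 1.5-fold.

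With metatherian CRX the subunit genes were spread evenly around the control level. Of 78 genes, 37 (47.4%) had a log2 fold change above 0, and the median was -0.01, as it was over all tested genes. In edgeR's test 0 genes reached an adjusted p under 0.05, where 0.0297% of all tested genes did, and the smallest adjusted p was 0.136. At an unadjusted p under 0.05, 0 were higher, against 9.04% of all tested genes, and 3 (3.85%) were lower, against 10.5%: *Ndufa4l2*, *Ndufb11* and *Ndufs6*. The libraries did not overlap in 6 genes that were higher (*Uqcrh*, *Ndufv2*, *Atp5b*, *Atp5c1*, *Sdha* and *Atp5o*), where 11% of all tested genes behaved so, and in 5 that were lower (*Ndufa4l2*, *Ndufb11*, *Ndufs6*, *Ndufa2* and *Atp5e*), where 12.3% did.

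A few alternative fits called a subunit gene here. DESeq2 called *Ndufb11* (log2 fold change -0.40, adjusted p = 0.0343) while calling 9.94% of all tested genes. Without eutherian CRX replicate 3, edgeR called *Ndufa4l2* (log2 fold change -1.42, adjusted p = 0.0492) while calling 8.83% of all tested genes. Without the libraries numbered 3 it called the same gene (-1.01, adjusted p = 0.02) while calling 22.2%. In the main fit *Ndufa4l2* passed the filter on low values only through the control condition. The filter thus bears on its direction and on its place among the lower genes above.

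By complex, the medians with metatherian CRX were -0.03 in complex I with 13 of 38 genes above 0, 0.06 in complex II with 4 of 4, 0.01 in complex III with 5 of 8, 0.04 in complex IV with 7 of 12 and 0.01 in complex V with 8 of 16. Without metatherian CRX replicate 3, 43 of the 78 genes were above 0 with a median of 0.04, and at an unadjusted p under 0.05 there were 3 higher and 2 lower, against 1285 and 1312 of the 10093 genes tested in that fit. The highest log2 fold changes were 0.32 for *Ndufb4*, 0.24 for *Uqcrh*, 0.20 for *Cox7a2*, 0.19 for *Ndufv2* and 0.18 for *Atp5b*. *Atp5b* (chromosome 10, 128083307 to 128090388) had 514, 540 and 531 FPKM in control, 561, 553 and 616 with eutherian CRX and 599, 590 and 613 with metatherian CRX, so both CRX conditions lay above control. *Atp5a1*, its partner in the catalytic head, was the steadiest of the 78 genes, with 249, 251 and 258 FPKM in control, 271, 273 and 263 with eutherian CRX and 271, 258 and 261 with metatherian CRX. Its SD within conditions was 0.03 on the log2 CPM scale, against a median of 0.16 for subunit genes and 0.21 for all tested genes.

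The lowest values after *Ndufa4l2* were -0.61 for *Uqcrq*, -0.41 for *Ndufb11*, -0.41 for *Ndufb7* and -0.39 for *Cox7c*. *Uqcrq*, a small subunit of complex III, had 124, 135 and 138 FPKM in control and 104.5, 130 and 38.9 with metatherian CRX. *Ndufb7* had 76.9, 84.5 and 92.8 in control and 76.0, 86.9 and 35.2 with metatherian CRX, and *Ndufs7*, the core subunit with the last iron-sulfur cluster before ubiquinone, had 20.2, 26.4 and 29.5 in control and 23.1, 27.8 and 12.1. In these 3 genes metatherian CRX replicate 3 stood far below the other 2 libraries of its condition, and without it the log2 fold change was -0.12 for *Uqcrq*, -0.12 for *Cox7c* and -0.01 for *Ndufb7*. The 95% interval lay inside a 2-fold change for 74 of the 78 genes, the others being *Ndufa4l2*, *Ndufb7*, *Ndufs7* and *Uqcrq*, and inside 1.5-fold for 57.

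*Ndufs6* and *Ndufb11* did not rest on that library alone. *Ndufs6* (chromosome 13, 73319876 to 73328482), a zinc-binding accessory subunit at the NADH-oxidising end of complex I, had 30.2, 36.0 and 32.0 FPKM in control, 32.8, 39.0 and 31.2 with eutherian CRX and 24.9, 29.8 and 21.1 with metatherian CRX. All 3 metatherian CRX libraries lay below all 6 others. The log2 fold change against control was -0.39 (SE 0.115, 0.634- to 0.925-fold, adjusted p = 0.151, edgeR) and without metatherian CRX replicate 3 it was -0.30.

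*Ndufb11* (chromosome X, 20615326 to 20617564), an accessory subunit of the membrane arm, had 46.3, 48.1 and 41.7 FPKM in control, 48.2, 49.7 and 37.3 with eutherian CRX and 38.6, 39.3 and 26.1 with metatherian CRX. The metatherian CRX libraries lay below control, while eutherian CRX replicate 3 lay among them. Against control the log2 fold change was -0.41 (SE 0.114, 0.624- to 0.908-fold, adjusted p = 0.136, edgeR), and -0.31 without metatherian CRX replicate 3.

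*Ndufa4l2* (chromosome 10, 127509304 to 127517154), a relative of *Ndufa4* known to be induced under low oxygen, was low everywhere and had its highest level in control. It had 3.20, 4.43 and 3.59 FPKM in control, 2.31, 1.90 and 0.168 with eutherian CRX and 1.855, 1.93 and 0.688 with metatherian CRX. Its counts were 184, 448 and 277 in control, 205, 142 and 14 with eutherian CRX and 164, 161 and 50 with metatherian CRX. All 6 CRX libraries lay below the 3 control libraries, and in both CRX conditions replicate 3 was the lowest. The log2 fold change was -1.80 with eutherian CRX (SE 0.657, 0.0975- to 0.848-fold, adjusted p = 0.501, edgeR) and -1.58 with metatherian CRX (SE 0.633, 0.118- to 0.945-fold, adjusted p = 0.238). With eutherian CRX it was -1.06 without replicate 3 of that condition, -1.10 without control replicate 3 and -0.86 without the libraries numbered 3. With metatherian CRX it ranged from -2.07 to -0.71 over all fits, the last being without control replicate 3. The gene passed the filter on low values only through the control condition, so the filter bears on its direction. These 2 comparisons share the control libraries. Its percent of the summed *Ndufa4* and *Ndufa4l2* level was 1.28, 1.86 and 1.93 in control, 0.921, 0.695 and 0.092 with eutherian CRX and 0.794, 0.951 and 0.307 with metatherian CRX.

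**Figure D3:**
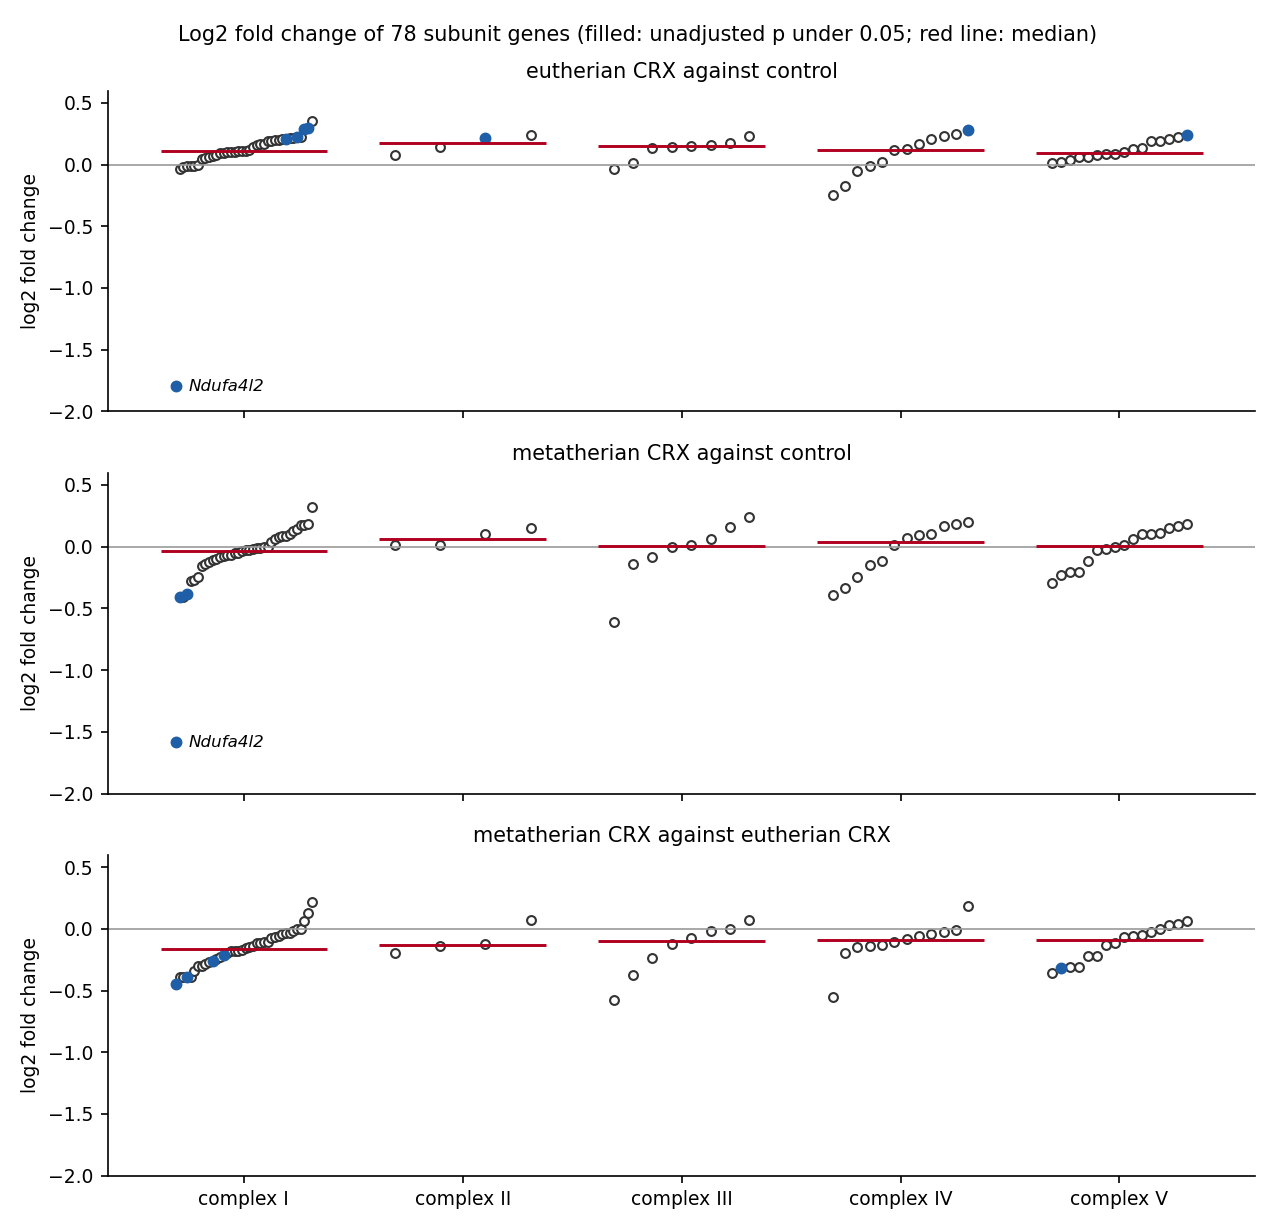
Log2 fold change of the 78 subunit genes by complex in the 3 comparisons; filled points have an unadjusted p under 0.05 and red lines are medians. Eutherian CRX against control has medians of 0.10 to 0.18 in every complex, metatherian CRX against control -0.03 to 0.06, and metatherian against eutherian CRX -0.17 to -0.09.

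Compared directly, the subunit genes lay lower with metatherian than with eutherian CRX, again without a gene that passed the test. Of 78 genes, 9 (11.5%) had a log2 fold change above 0, against 48.8% of all tested genes, and the median was -0.13 (0.914-fold). In edgeR's test 0 subunit genes had an adjusted p under 0.05, where 0% of all tested genes did, and the smallest adjusted p was 0.283. At an unadjusted p under 0.05, 5 genes (6.41%) were lower, against 4.13% of all tested genes, and 0 were higher, against 7.41%. The libraries did not overlap in 14 genes (17.9%) that were lower, against 5.3% of all tested genes, and in 1 that was higher, *Cox7a2l*, against 6.23%. DESeq2 called *Ndufs6* (log2 fold change -0.44, adjusted p = 0.0402) while calling 3.14% of all tested genes. Without the libraries numbered 3, edgeR called *Ndufa5*, *Ndufb11* and *Ndufs6* (log2 fold changes of -0.43, -0.33 and -0.39, adjusted p of 0.0118, 0.0297 and 0.0274) while calling 22.5% of all tested genes.

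The medians were -0.17 in complex I with 3 of 38 genes above 0, -0.13 in complex II with 1 of 4, -0.10 in complex III with 1 of 8, -0.09 in complex IV with 1 of 12 and -0.09 in complex V with 3 of 16. The lowest log2 fold changes were -0.58 for *Uqcrq*, -0.56 for *Cox7c*, -0.45 for *Ndufs6*, -0.39 for *Ndufb7* and -0.39 for *Ndufa2*. The highest were 0.21 for *Ndufa4l2*, 0.19 for *Cox7a2l*, 0.13 for *Ndufs1*, 0.08 for *Sdha* and 0.07 for *Uqcrh*, of which *Ndufa4l2* and *Uqcrh* were at -0.36 and -0.02 without eutherian CRX replicate 3. Without metatherian CRX replicate 3, *Uqcrh* was at -0.06, *Uqcrq* at -0.08, *Cox7c* at -0.29, *Ndufa2* at -0.14 and *Ndufb7* at 0.00. That fit had 21 of 78 genes above 0 with a median of -0.11, and the fit without eutherian CRX replicate 3 had 9 with a median of -0.13. The count of 5 lower genes became 8 without control replicate 3 or metatherian CRX replicate 3, 3 when any of 5 other libraries was left out, and 17 without the libraries numbered 3. Over all tested genes the count went from 417 to 563 without control replicate 3 and to 875 without metatherian CRX replicate 3. It went to 1770 without the libraries numbered 3. The 95% interval lay inside a 2-fold change for 73 of the 78 genes and inside 1.5-fold for 55.

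The 5 genes at an unadjusted p under 0.05 were *Ndufs6*, *Ndufb11*, *Atp5e*, *Ndufc2* and *Ndufb10*. Without the replicate block 4 subunit genes were lower at that threshold, against 256 of all tested genes. *Ndufs6* had the smallest p, with a log2 fold change of -0.45 (SE 0.115, 0.607- to 0.885-fold, adjusted p = 0.283, edgeR). *Ndufb11* stood at -0.39 (adjusted p = 0.314, edgeR). Both also lay below control with metatherian CRX, as their FPKM above show. *Atp5e* (chromosome 2, 174461075 to 174464101) had 129, 124.6 and 126 FPKM in control, 132, 144 and 128 with eutherian CRX and 119, 116 and 91.0 with metatherian CRX. All 3 metatherian CRX libraries lay below the other 6, with a log2 fold change of -0.31 against eutherian CRX (adjusted p = 0.36, edgeR).

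*Ndufc2*, of the membrane arm of complex I, had 79.3, 84.4 and 78.6 FPKM in control, 86.4, 88.7 and 86.0 with eutherian CRX and 76.7, 79.8 and 62.1 with metatherian CRX. The eutherian CRX libraries lay above all others in this gene, and its log2 fold change between the CRX conditions was -0.26 (adjusted p = 0.406, edgeR). For *Ndufb10* it was -0.21 (adjusted p = 0.409, edgeR), and the metatherian CRX libraries overlapped control. Without metatherian CRX replicate 3 the log2 fold changes were -0.37 for *Ndufs6*, -0.30 for *Ndufb11*, -0.21 for *Atp5e*, -0.17 for *Ndufc2* and -0.17 for *Ndufb10*.

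**Figure D4:**
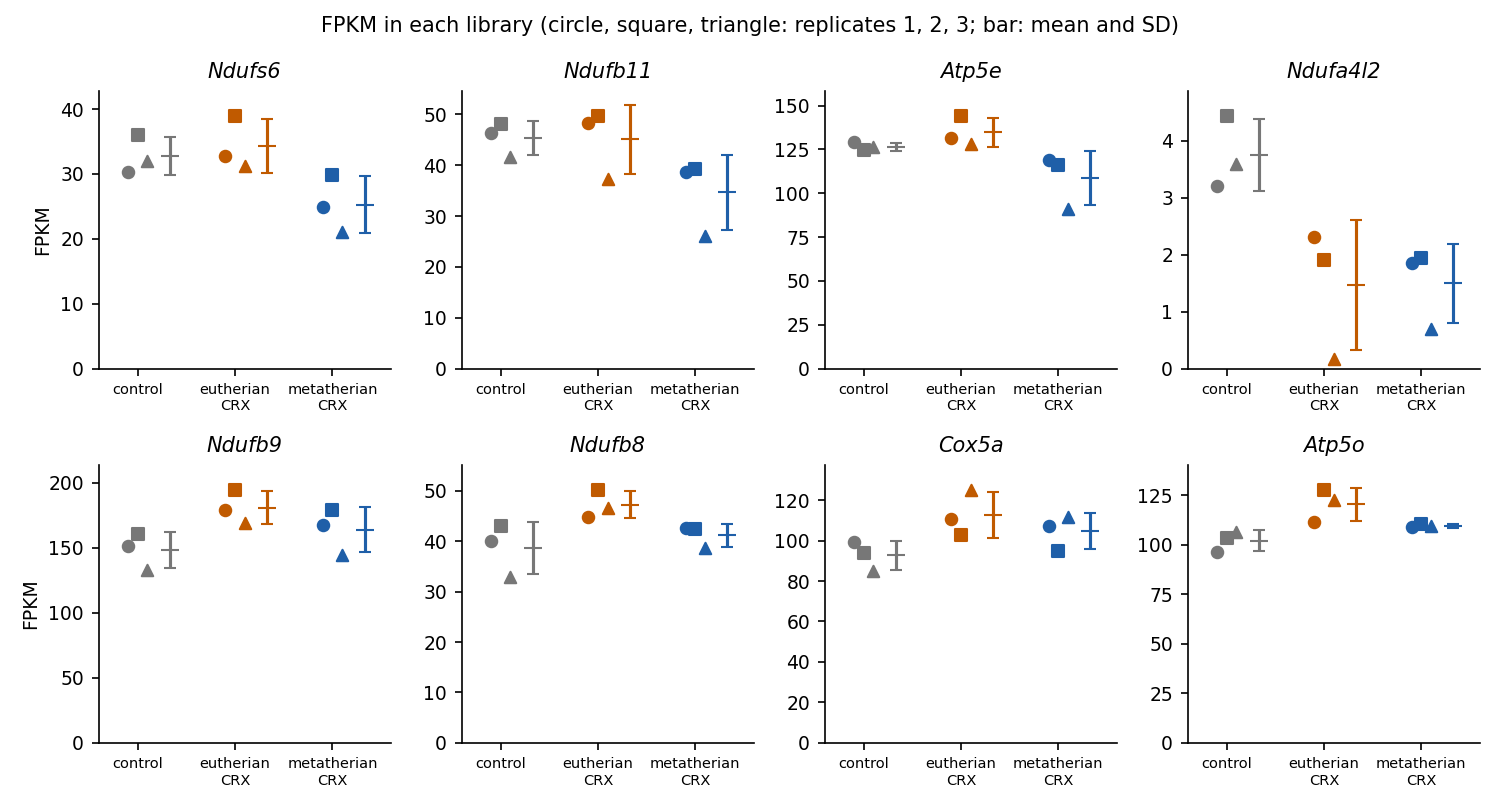
FPKM in each library for 8 subunit genes, with circle, square and triangle for replicates 1, 2 and 3 and a bar for the mean and SD of 3 libraries; each axis starts at 0. Ndufs6 and Atp5e are lower in all 3 metatherian CRX libraries than in the other 6, Ndufa4l2 is lower in all 6 CRX libraries than in control, and Ndufb9, Ndufb8 and Cox5a are higher in the eutherian CRX libraries than in control.

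Among the subunit genes, 2 libraries were most often the extreme ones. Metatherian CRX replicate 3 was the lowest of the 9 libraries in 33 of 78 genes (42.3%, against 20.6% of all tested genes), and eutherian CRX replicate 2 was the highest in 34 (43.6%, against 11.1%). In metatherian CRX replicate 3, 18 genes (23.1%, against 16.5% of all tested genes) lay more than 0.5 below the mean of the other 2 libraries of the condition on the log2 CPM scale. They included *Uqcrq*, *Ndufb7*, *Uqcr11*, *Ndufs7*, *Cox7c*, *Atp5d*, *Ndufa11*, *Ndufa13*, *Uqcr10* and *Ndufa7*. All replicates of a condition differed beyond counting noise, their counts having a chi-square between 30.81 and 1175 for each degree of freedom.

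The distance of replicate 3 from the other libraries of its condition went with GC content of the transcript. Across the 78 genes the rank correlation was -0.497 in metatherian CRX, 0.462 in control and 0.37 in eutherian CRX, and over 10027 tested genes with a GC value it was -0.505, 0.419 and 0.28. The subunit genes had a median GC of 50.7%, against 50.1% for all. Of the 39 genes above the median GC, 14 lay more than 0.5 below in metatherian CRX replicate 3, against 4 of the 39 at or below it, with median differences of -0.28 and 0.04. GC content also went with the log2 fold change of metatherian CRX against control, with a rank correlation of -0.333 (-0.324 over all tested genes), with that of metatherian against eutherian CRX, with -0.263 (-0.36), and hardly with that of eutherian CRX against control, with -0.08 (-0.07). Genes share libraries, so these are descriptions, and the part of GC content in the comparisons was not tested.

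**Figure D5:**
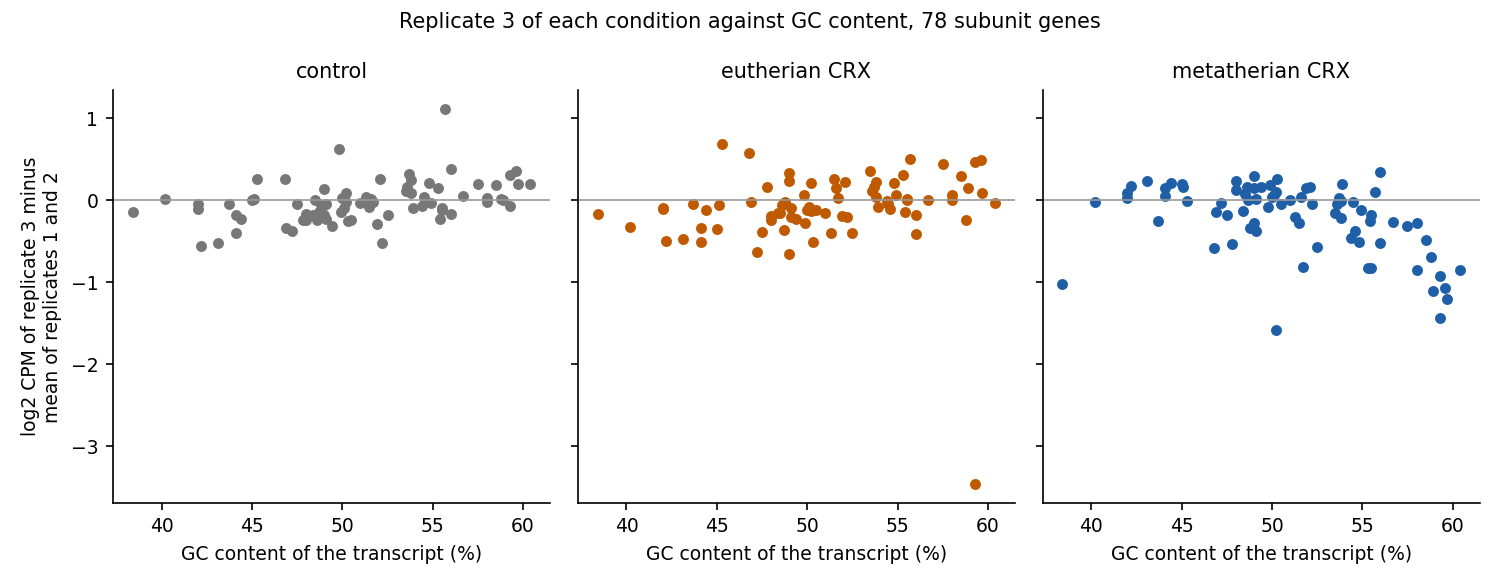
Log2 CPM of replicate 3 minus the mean of replicates 1 and 2 of the same condition against GC content of the transcript in percent, 1 point per subunit gene, for the 3 conditions. In metatherian CRX the points fall towards high GC (rank correlation -0.497), while in control (0.462) and eutherian CRX (0.37) they climb.

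Other genes of mitochondrial energy metabolism were followed as lists, none of which held a gene with an adjusted p under 0.05 in edgeR's test. Among 42 tested assembly factors, 34 were above 0 with eutherian CRX (median 0.10) and 22 with metatherian CRX (median 0.00). Among 75 mitochondrial ribosomal proteins, which make the mitochondrially encoded subunits, 63 were above 0 with eutherian CRX (median 0.15), 41 with metatherian CRX (median 0.02) and 13 in the direct comparison (median -0.13). As in the subunit genes, most members of both lists lay above 0 with eutherian CRX and below 0 in the direct comparison.

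Of 16 tricarboxylic acid cycle genes, which feed the respiratory chain, 13 were above 0 with eutherian CRX (median 0.07), 14 with metatherian CRX (median 0.10) and 12 in the direct comparison (median 0.06), where only 9 of 78 subunit genes were. Of 20 genes for mitochondrial import and the outer membrane, 18, 15 and 9 were above 0 in the same order. Of 24 tested regulators of mitochondrial biogenesis, 14, 15 and 12 were. Of 10 tested respiratory chain genes outside the rule, 7, 4 and 0 were, with *Smdt1*, a part of the calcium uniporter placed in that list, at a log2 fold change of -0.29 in the direct comparison. In the direct comparison the cycle genes thus had a median above 0 and the subunit genes one below 0, a difference that was not tested.

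Some genes of these lists had smaller p-values than any subunit gene, and none passed the adjusted threshold. *Lrpprc*, which stabilises mitochondrial messenger RNA, had a log2 fold change of 0.58 with metatherian CRX (adjusted p = 0.12, edgeR). *Prkaa1*, a catalytic subunit of the energy sensor AMPK, had 0.52 (adjusted p = 0.0847, edgeR). *Ndufaf3*, an assembly factor of complex I, had -0.66 in metatherian against eutherian CRX (adjusted p = 0.275, edgeR). *Tomm20*, a receptor of the import pore, had 0.53 in the same comparison (adjusted p = 0.275, edgeR). *Ndufaf3* had means of 9.65 ± 1.71, 12.0 ± 1.23 and 7.70 ± 1.93 FPKM in control, eutherian CRX and metatherian CRX (SD, n = 3).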

How the data were processed

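The authors aligned paired poly-A RNA-seq reads to mm10 with STAR and deposited raw featureCounts counts per gene for all 9 libraries. Annotation release, strand option and treatment of multiply mapped reads are not given in the sources used here. The labels give 48 hours of recovery after selection, the methods a shorter time. From the deposited counts, FPKM was computed with TMM-scaled library sizes and exon length. Genes kept by filterByExpr (14599) with a mean over 2 FPKM in at least 1 condition were tested (10100) with edgeR 4.0.16 in R 4.3.3: quasi-likelihood fit, all 9 libraries, replicate number as a block because the study associated samples prepared in pairs, Benjamini-Hochberg adjustment over all 10100, calls under 0.05. The 95% intervals come from that fit. DESeq2 1.42.0 was an alternative, with other scalings, other filters, no block and libraries left out. The fits were also run on simulated counts. These held no effect of replicate number or GC content, so that run does not bear on such effects here. Numbers correlated over 0.1 in 8 of 9 same-numbered pairs, so pairing was not shown. Without the block, 0 subunit genes were called in each comparison as well. Counts have depths of 54145701 to 94699657 per library. The 95% intervals include the spread between libraries, and no intervals on counts alone are given. The members and lists were chosen with earlier results of these data known. Genes named are the 5 highest and 5 lowest per comparison, the core and isoform genes, the highest and lowest level per complex, and in other lists the 2 highest and lowest. Genes at an unadjusted p under 0.05, or whose libraries did not overlap, were named after their values were seen. FPKM files by the authors were not used here. Promoters and their sequences are from RefSeq on GRCm38.p6.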

Additional observations from a re-analysis of the deposited data

Results flagged for a closer look

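In 5 subunit genes the effects of the metatherian and eutherian CRX conditions against the same control differed by a direct test at an unadjusted p under 0.05, and in none at the adjusted threshold (edgeR). The log2 fold changes of metatherian against eutherian CRX were -0.448 for *Ndufs6*, -0.389 for *Ndufb11*, -0.315 for *Atp5e*, -0.263 for *Ndufc2* and -0.215 for *Ndufb10*. All 5 were lower with metatherian CRX. They are 6.41% of the 78 subunit genes, against 4.13% of all tested genes that were lower, while 0 subunit genes were higher, against 7.41%. Over both directions 1165 of 10100 tested genes passed, so the count is not above that of other genes.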

How the results depend on the processing

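In every fit run the median log2 fold change of the 78 subunit genes kept its direction for eutherian CRX against control (0.10 to 0.22) and for metatherian against eutherian CRX (-0.19 to -0.09), while for metatherian CRX against control it lay on both sides of 0 (-0.03 to 0.04). The number above 0 ranged from 57 to 75, from 7 to 25 and from 30 to 46 in the same order. Counts at an unadjusted p under 0.05 moved more, and the cause was not tested.

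Without the replicate block, 1 gene was higher and 1 lower with metatherian CRX and 0 were lower with eutherian CRX. Over all tested genes these counts were 584, 733 and 460. Relative-log-expression factors gave 1 higher with metatherian CRX, against 947 of all tested genes. Upper-quartile factors gave 8 lower in the direct comparison, where all tested genes went from 417 to 574. Total counts gave 1 higher with metatherian CRX, 14 higher with eutherian CRX (median 0.22) and 11 lower in the direct comparison (median -0.19). Over all tested genes these counts went from 913 to 1007, from 225 to 594 and from 417 to 670. In that fit *Cox6a1* stood at 0.044 and *Ndufv3* at 0.058 with eutherian CRX. DESeq2 called 1 gene in each comparison, with 2 higher at an unadjusted p with metatherian CRX. Of all tested genes it called 1004, 333 and 317 in the metatherian, eutherian and direct comparisons. With metatherian CRX 1070 of them were higher at an unadjusted p. Keeping genes with at least 1 count gave 3 lower in the direct comparison, against 637 of the 18312 genes tested in that fit. Fits of only the 6 libraries compared gave 4 higher and 0 lower with eutherian CRX and 3 lower in the direct comparison. Over all genes tested in those fits the counts were 227 and 624 of 10018, and 290 of 9930.

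Without the libraries numbered 3, chosen after seeing the data, 1 gene was called and 5 were higher with metatherian CRX. With eutherian CRX 16 were higher, and in the direct comparison 3 were called and 17 lower. These fits called 22.2% of all tested genes with metatherian CRX and 22.5% in the direct comparison. Of the 10025 genes tested in them, 1742 were higher with metatherian CRX and 594 higher with eutherian CRX, and 1770 were lower in the direct comparison. *Ndufb7* then stood at 0.011 with metatherian CRX, *Cox6a1* at 0.038, *Cox7a2l* at 0.022 and *Ndufv3* at 0.24 with eutherian CRX, and *Ndufa4l2* at -0.16 and *Uqcrh* at -0.082 in the direct comparison.

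With 1 library left out at a time, metatherian CRX had 0 to 1 genes called and 0 to 3 higher. The 1 called was without eutherian CRX replicate 3, where 8.83% of all tested genes were called. Eutherian CRX had 2 to 15 higher and 0 to 1 lower, and the direct comparison 3 to 8 lower. Over all tested genes these fits had 424 to 1285 higher with metatherian CRX. They had 86 to 488 higher and 423 to 884 lower with eutherian CRX, and 134 to 898 lower in the direct comparison. With eutherian CRX, *Cox6a1* ranged from -0.14 to 0.12, *Cox6b2* from -0.43 to 0.047, *Cox7a2l* from -0.29 to 0.048 and *Ndufv3* from -0.18 to 0.26. In the direct comparison *Ndufa4l2* ranged from -0.36 to 0.86, *Uqcrh* from -0.064 to 0.17 and *Ndufb7* from -0.65 to 0.0014.

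The spread between libraries set the precision: 95% intervals reached a median factor of 1.24, 1.22 and 1.22 to either side in the metatherian, eutherian and direct comparisons and were narrower for some genes.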
